A study of Mus musculus with 9 samples.

Results

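The nuclear genes for the enzymes of oxidative phosphorylation were compared between the mandibles of WT mice and of mice labelled FcγRIIB-/-. Genes were chosen by name: symbols that begin with Nduf, Uqcr, Atp5 or Cox4 to Cox8, and the 4 genes Sdha, Sdhb, Sdhc and Sdhd. The choice used no expression value. It gave 99 of the 27179 genes in the count table, of which 94 had enough counts to be tested among 16329 tested genes. The muscle isoforms of cytochrome c oxidase, Cox6a2, Cox7a1 and Cox8b, were described apart from the rest.

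Oxidative phosphorylation is the last stage of respiration. Complexes I and II take electrons from NADH and succinate, complexes III and IV pass them on to oxygen, and complexes I, III and IV pump protons across the inner mitochondrial membrane. Complex V, the ATP synthase, lets the protons flow back and makes ATP. Nuclear DNA encodes most of the subunits, mitochondrial DNA encodes a few at the catalytic and proton-pumping heart of complexes I, III, IV and V, and complex II is wholly nuclear. The genes are read in nearly every cell, and most of all in heart, striated muscle and brown fat. Striated muscle uses its own isoforms of 3 small subunits of complex IV.

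FcγRIIB is the inhibitory receptor for IgG, and mice without it are used as a model of lupus. The 5 WT mice and the 4 mice labelled FcγRIIB-/- were C57BL/6 males aged 6 months. Each library was made from poly(A) RNA of the whole mandible of 1 mouse, with its teeth, so bone, marrow, attached muscle and gum were read together. The knockout is carried by the whole animal. In such bulk RNA, fewer cells of a type and less RNA per cell cannot be told apart.

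The libraries held between 24158960 and 26787359 counts in WT, and 21453880 to 28991631 counts where the label was FcγRIIB-/-. The targeted gene, Fcgr2b, had 17.04 to 38.28 CPM (counts scaled to a library of 1e6 reads after normalization) in WT and 26.0 to 32.1 CPM in the other libraries, so the label did not go with a lower level (log2 fold change 0.21, with a standard error, SE, of 0.20, adjusted p = 0.442). Every direction given here is therefore between libraries by their labels, and the second group is called the knockout-labelled libraries. Skeletal muscle markers were present in all 9 libraries and higher in the knockout-labelled ones, with 17 of 28 called higher and 0 lower. Most markers of blood cells, osteoclasts and keratinocytes were lower there. All 8 erythroid and all 10 neutrophil markers, 7 of 8 B-lineage markers, 7 of 8 osteoclast markers and 6 of 8 keratinocyte markers were called lower. The other two keratinocyte markers, the basal keratins, had positive log2 fold changes, 0.39 in Krt5, called higher (adjusted p = 0.036), and 0.24 in Krt14, not called (adjusted p = 0.32). Erythroid markers summed to 1834 to 2174 CPM in WT and 113.1 to 494.0 CPM in the knockout-labelled libraries, and neutrophil markers to 1188 to 3607 CPM and 145.1 to 434.4 CPM. Of 8 osteoblast markers, 0 were higher and 3 lower. The part of these cell types in the levels below was not tested.

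The oxidative phosphorylation genes were mostly higher in the knockout-labelled libraries. Of the 94 tested genes, 81 passed the test as higher (edgeR quasi-likelihood test, Benjamini-Hochberg adjusted p under 0.05 over all tested genes) and 0 as lower. Over all tested genes, 14.0% were called higher and 19.3% lower. DESeq2 gave 85 higher and 0 lower, and at an unadjusted p under 0.05 edgeR had 86 higher and 0 lower. The median log2 fold change of the 94 genes was 0.57, while that of all tested genes was 0.0055.

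The groups of mice were also apart gene by gene. In 75 of the 94 genes, each of the 4 knockout-labelled libraries lay above each of the 5 WT libraries, and in 0 genes below. Among all tested genes 12.1% lay wholly above and 17.5% wholly below. Together the 99 genes took between 0.832% and 1.05% of the counts of a WT library and between 1.145% and 1.452% of a knockout-labelled one. In summed CPM, WT libraries averaged 9571 ± 866 (SD, n = 5) and knockout-labelled libraries 13310 ± 1365 (SD, n = 4), or 1.39 times as much.

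Within each group, the genes moved together from mouse to mouse. Averaged over the 91 tested genes other than the muscle isoforms, log2 CPM relative to the WT mean was 0.083, -0.23, 0.054, 0.082 and 0.012 in WT replicates 1 to 5. It was 0.63, 0.32, 0.48 and 0.58 in knockout-labelled replicates 1 to 4. WT replicate 2 was the low library of its group, with the lowest value of all 9 libraries in 85 of the 94 genes. In the knockout-labelled group, replicate 2 was the lowest in 72 genes and replicate 1 the highest in 49. Without WT replicate 2, 75 genes were called higher, and without knockout-labelled replicate 1, 68 genes were.

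**Figure D1:**
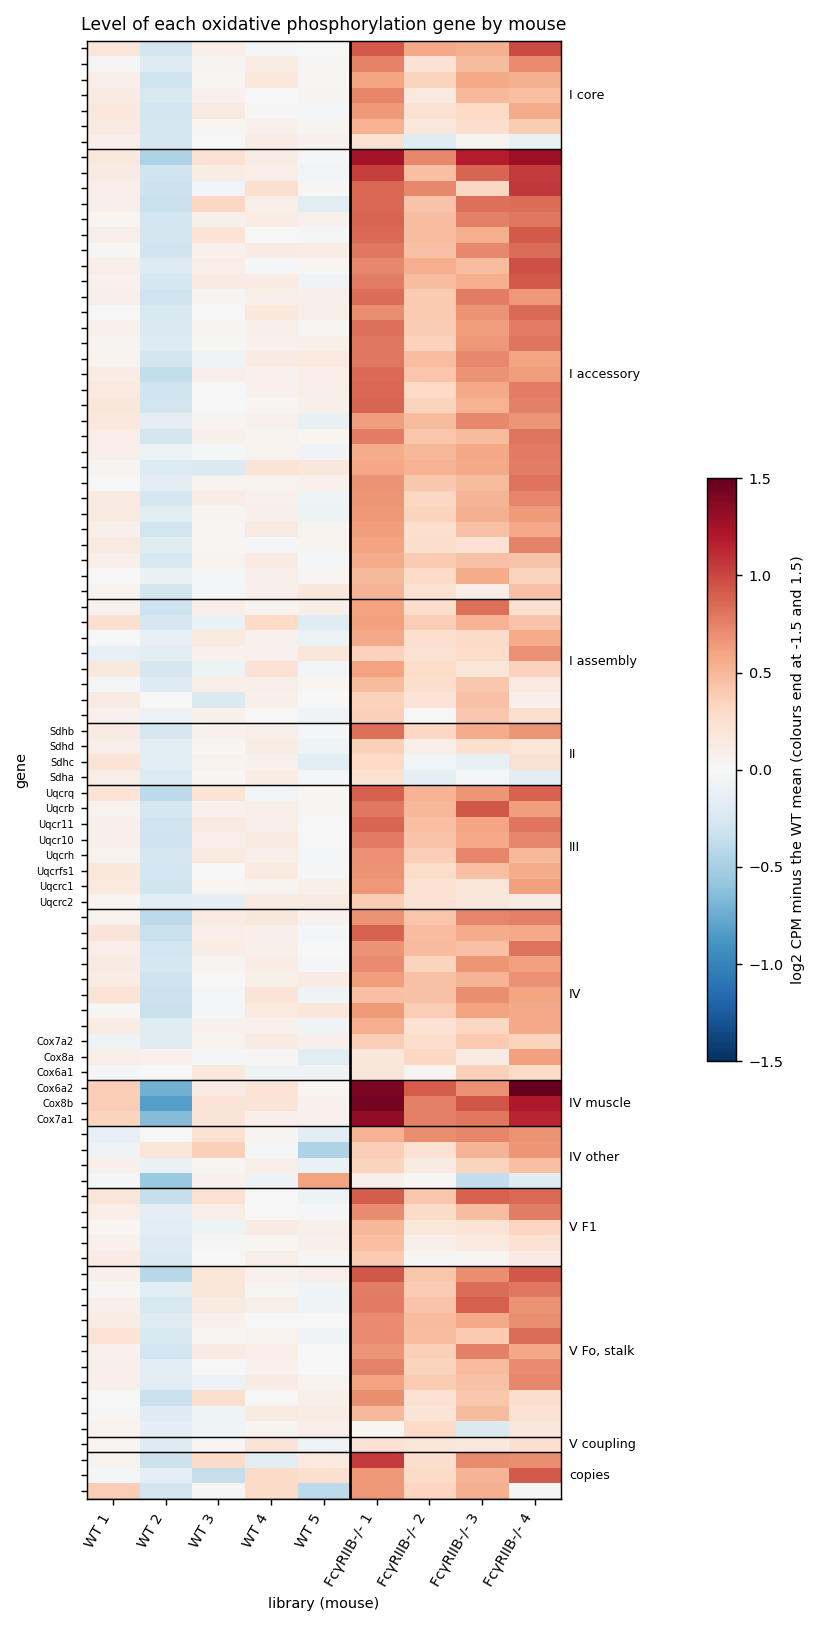
Level of each of the 94 tested oxidative phosphorylation genes (rows, by complex) in each of the 9 mice (columns), as log2 CPM minus the WT mean, where red is above and blue below. Row names are given for complexes II and III and for the muscle isoforms with their paralogues. WT replicate 2 is blue in nearly all rows, and the 4 knockout-labelled libraries are red in most rows. The rows of Cox6a2, Cox8b and Cox7a1 are among those with the deepest colours, as is the unnamed row of Ndufa5.

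Complex I, the NADH dehydrogenase, gave 42 of 44 tested genes higher, with a median log2 fold change of 0.60. Its accessory subunits surround the catalytic core and take no part in electron transfer themselves. All 29 of them were called higher, from 0.32 in Ndufa10 to 1.11 in Ndufa5, and 28 of them had no overlap between the groups. The median of the accessory subunits was 0.64.

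Ndufa5, an accessory subunit of the arm that reaches into the matrix, had the largest difference outside the muscle isoforms. It stood at 65.0, 42.0, 67.9, 62.6 and 57.4 CPM in WT replicates 1 to 5 and at 138.0, 96.2, 131.8 and 142.3 CPM in knockout-labelled replicates 1 to 4. Every knockout-labelled library was above every WT library, and the lowest value was again that of WT replicate 2. The log2 fold change was 1.11 (SE 0.15, adjusted p = 0.00074). Ndufa13, an accessory subunit also known as GRIM-19, had a log2 fold change of 0.86 (SE 0.13, adjusted p = 0.0012), from 95.3 ± 11.1 CPM (SD, n = 5) in WT to 172.9 ± 30.7 CPM (SD, n = 4). At the low end of the accessory subunits, Ndufc2 had 0.42 and Ndufa10 had 0.32 (adjusted p = 0.037). Ndufa10 was the accessory subunit whose groups overlapped, with a WT range of 62.2 to 84.6 CPM and a knockout-labelled range of 81.0 to 107.4 CPM. Its call was lost without WT replicate 1, 2 or 3 or knockout-labelled replicate 1 or 4 (edgeR adjusted p from 0.0527 to 0.105).

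The core subunits carry the flavin and the iron-sulfur clusters through which electrons pass. Of the 7 nuclear ones, 6 were called higher, with a median of 0.46. Ndufs7 and Ndufs8, which hold the last clusters of the chain before ubiquinone, led with 0.76 (SE 0.12, adjusted p = 0.0014) and 0.55 (SE 0.11, adjusted p = 0.0037). Ndufs7 rose from 53.8 to 74.0 CPM in WT to 94.5 to 129.3 CPM, with no overlap. Ndufs1, the large iron-sulfur subunit at the entry of the chain, had 152.3, 121.7, 145.8, 156.2 and 151.6 CPM in WT and 169.5, 127.9, 148.7 and 134.9 CPM in the knockout-labelled libraries. Its values were intermixed, and its log2 fold change was -0.0025 (SE 0.10, adjusted p = 0.99).

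Assembly factors named Ndufaf help to build complex I and are not part of the finished enzyme. Of the 8 tested, 7 were called higher, with a median of 0.37. Ndufaf4 and Ndufaf6 had the largest log2 fold changes, 0.50 (adjusted p = 0.016) and 0.48 (adjusted p = 0.031). Ndufaf7, a methyltransferase that modifies a core subunit, had 0.26 (adjusted p = 0.043), and Ndufaf2 had 0.27 and did not pass (adjusted p = 0.081). The call of Ndufaf6 was lost without WT replicate 2, 3 or 5 or knockout-labelled replicate 1 or 3 (adjusted p from 0.0507 to 0.0825), and that of Ndufaf7 without WT replicate 2, 4 or 5 or knockout-labelled replicate 1, 3 or 4 (0.056 to 0.109). Ndufaf2 passed without knockout-labelled replicate 4 (adjusted p = 0.0472) and with the GC trend removed (0.0377).

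Complex II, the succinate dehydrogenase, is shared with the citric acid cycle and was split. Of its 4 genes, 2 were called higher and 2 were not, with a median log2 fold change of 0.16. Sdhb, the iron-sulfur subunit, stood at 119.4, 91.9, 114.7, 116.3 and 107.4 CPM in WT and at 194.1, 135.9, 161.0 and 173.3 CPM in the knockout-labelled libraries. These ranges did not overlap, and the log2 fold change was 0.60 (SE 0.11, adjusted p = 0.0030). Sdhd, 1 of the pair of membrane anchors, had 0.22 (SE 0.077, adjusted p = 0.047) with overlapping groups. Sdhc, the other anchor, had 0.097 (SE 0.11, adjusted p = 0.53). Sdha, the flavoprotein that oxidizes succinate, had 252.9 to 316.0 CPM in WT and 260.9 to 342.3 CPM in the knockout-labelled libraries, a log2 fold change of -0.021 (SE 0.10, adjusted p = 0.89). The call of Sdhd was lost without WT replicate 2, 3 or 5 or knockout-labelled replicate 1, 3 or 4 (adjusted p from 0.0567 to 0.125), and the count of complex II was 1 in each of these fits.

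Complex III, the cytochrome bc1 complex, gave 7 of the 8 genes taken by the name rule higher, with a median log2 fold change of 0.60. The rule misses Cyc1, the cytochrome c1 of this complex, which was read with the electron carriers. Named here after its value was seen, Cyc1 had 0.38 (adjusted p = 0.018). The small subunits stood highest. Uqcrq had 0.73, Uqcrb 0.71, Uqcr11 0.68, Uqcr10 0.63 and Uqcrh, the hinge protein, 0.57, with adjusted p-values from 0.00093 to 0.0029. In Uqcrb, for example, the WT libraries held 74.4 to 95.2 CPM and the knockout-labelled ones 125.2 to 169.4 CPM. Uqcrfs1, the Rieske iron-sulfur protein, had 0.49 (adjusted p = 0.0064). The core proteins, which face the matrix, stood lowest: Uqcrc1 had 0.43 (adjusted p = 0.023), and Uqcrc2 had 0.22 and did not pass (adjusted p = 0.081). Uqcrc2 overlapped between the groups, at 154.6 to 190.8 CPM in WT and 188.9 to 226.1 CPM in the knockout-labelled libraries. The call of Uqcrc1 was lost without knockout-labelled replicate 1 (adjusted p = 0.0684) or 4 (adjusted p = 0.0639), and Uqcrc2 passed without WT replicate 5 (adjusted p = 0.0495), with DESeq2 (0.0464) and with the GC trend removed (0.0289).

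In complex IV, cytochrome c oxidase, the nuclear subunits support a core that mitochondrial DNA encodes. Of the 11 subunits of most tissues, 10 were called higher, with a median log2 fold change of 0.54. The largest differences were in Cox6c (0.63, SE 0.12, adjusted p = 0.0031) and Cox5a (0.62, SE 0.12, adjusted p = 0.0034). The 3 smallest were in Cox7a2, Cox8a and Cox6a1, which are the paralogues of the muscle isoforms.

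**Figure D2:**
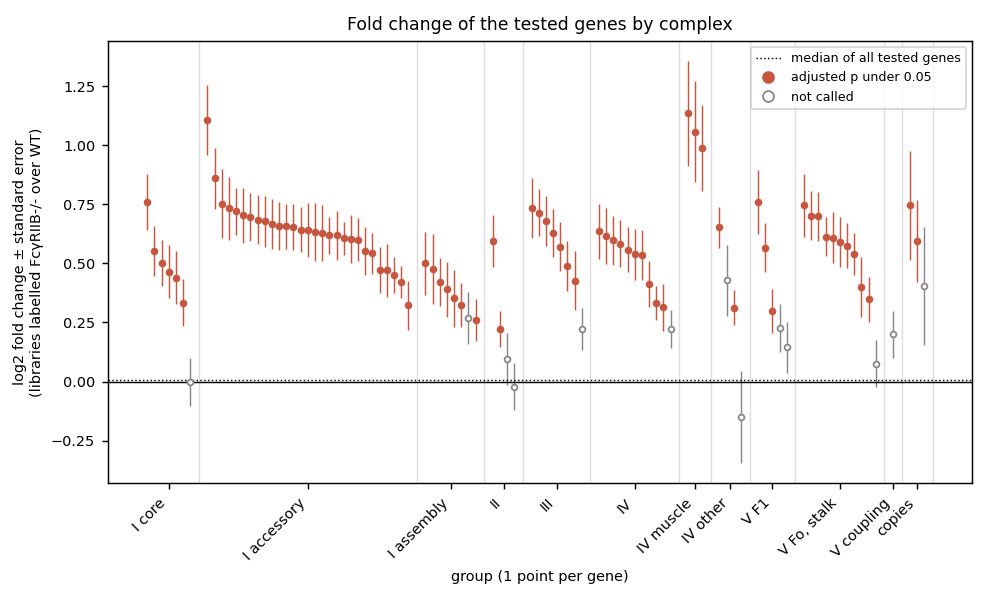
Log2 fold change of the 94 tested genes (1 point per gene, bars are standard errors), knockout-labelled over WT libraries, grouped by complex. Filled points passed an adjusted p under 0.05 and open points did not. Nearly all points lie above 0, the 3 muscle isoforms lie near 1, and the open points include Ndufs1, Sdha and Ndufa4l2 at or below 0.

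The muscle isoforms had the largest differences of complex IV, and all 3 were called higher, with a median log2 fold change of 1.06. Cox6a2, a regulatory subunit of heart and skeletal muscle, had 118.5, 55.9, 100.1, 105.8 and 94.01 CPM in WT replicates 1 to 5 and 245.5, 172.6, 148.2 and 267.5 CPM in knockout-labelled replicates 1 to 4. Its lowest knockout-labelled value was above its highest WT value, and WT replicate 2 was again the lowest. The log2 fold change was 1.14 (SE 0.22, adjusted p = 0.0039).

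Cox8b, the muscle form of the smallest subunit, had 78.4, 34.3, 70.1, 69.6 and 63.8 CPM in WT and 165.4, 103.3, 117.1 and 140.0 CPM in the knockout-labelled libraries. Cox7a1 had 61.3, 30.9, 55.6, 51.4 and 50.8 CPM in WT and 122.9, 82.1, 84.1 and 107.7 CPM in the knockout-labelled libraries. Neither gene overlapped between the groups. The log2 fold changes were 1.06 (SE 0.21, adjusted p = 0.0046) for Cox8b and 0.99 (SE 0.18, adjusted p = 0.0032) for Cox7a1. Over the fits that left out a mouse, the log2 fold changes of the 3 genes lay between 0.87 and 1.27, and each stayed called.

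The paralogues of most tissues had smaller log2 fold changes. Cox7a2 rose from 90.9 ± 7.56 CPM (SD, n = 5) to 114.5 ± 4.47 CPM (SD, n = 4), a log2 fold change of 0.33 (SE 0.071, adjusted p = 0.0059). Cox8a rose from 95.6 ± 6.11 CPM to 118.9 ± 18.9 CPM, a log2 fold change of 0.31 (SE 0.099, adjusted p = 0.033), and its call was lost without knockout-labelled replicate 2 (adjusted p = 0.0618) or 4 (adjusted p = 0.0626). Cox6a1 stood at 107.1 ± 7.31 CPM in WT and 125.0 ± 12.0 CPM in the knockout-labelled libraries, and it did not pass (log2 fold change 0.22, SE 0.079, adjusted p = 0.051). This call depended on the setting. Cox6a1 passed with RLE normalization (adjusted p = 0.0369), with TMM without the oxidative phosphorylation and muscle genes (0.0298), with a floor of 10 counts per library (0.0373) and with DESeq2 (0.0179), and also without WT replicate 3 (0.0219) or knockout-labelled replicate 2 (0.0233).

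**Figure D3:**
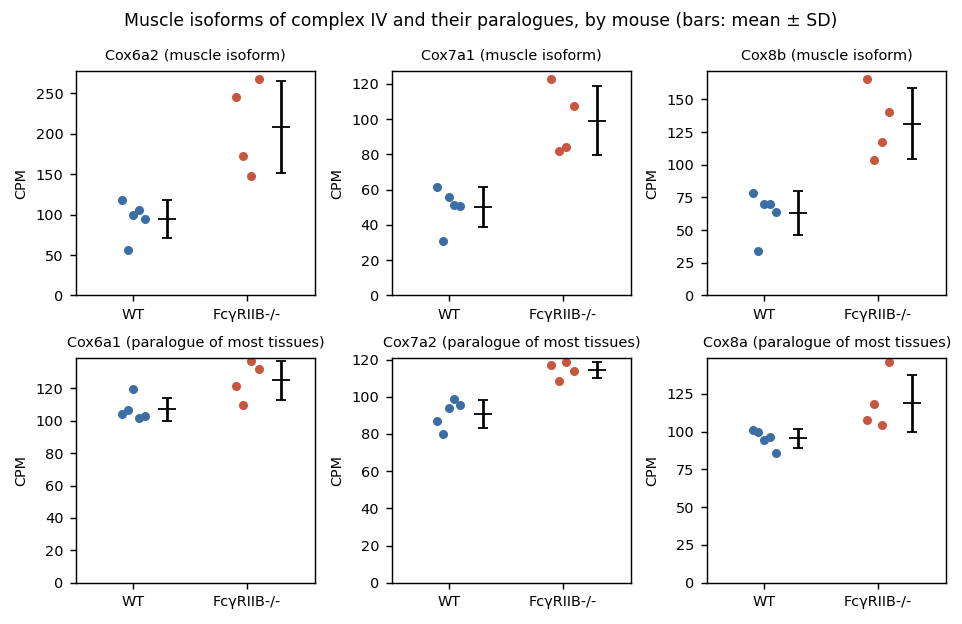
CPM in each mouse (points) of the muscle isoforms Cox6a2, Cox7a1 and Cox8b (top) and of their paralogues Cox6a1, Cox7a2 and Cox8a (bottom), with the mean and SD of each group as bars. The muscle isoforms rise between the groups with no overlap, from 94.9 to 208.5 CPM on average in Cox6a2, while Cox6a1 goes from 107.1 to 125.0 CPM with overlap.

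The balance within each pair was taken as the ratio of the isoform's count to its paralogue's count in the same library, which does not depend on the scaling between libraries. Over the 8 ratios examined, differences of mean log2 ratio were tested with a two-sided exact permutation test over all 126 splits of the 9 mice, whose smallest possible p is 0.00794. Cox8b stood at 77.3%, 34.4%, 74.4%, 72.0% and 74.3% of Cox8a in WT and at 154.1%, 87.5%, 112.3% and 96.0% in the knockout-labelled libraries. The difference in log2 ratio was 0.78 (exact p = 0.00794, adjusted p = 0.0318), with no overlap. Cox7a1 stood at 38.8% to 70.6% of Cox7a2 in WT and at 71.0% to 105.1% in the knockout-labelled libraries, a difference of 0.67 (exact p = 0.0159, adjusted p = 0.0318). Those ranges just missed each other, while those of Cox6a2 to Cox6a1 overlapped, at 52.4% to 113.6% and 108.3% to 203.1% (difference 0.92, exact p = 0.0159, adjusted p = 0.0318). When a mouse was left out, fewer splits remained and the smallest possible p was larger. An adjusted p under 0.05 then needed several of the 8 ratios to lie at or near that smallest p. A lost call thus reflects the coarser test as well as the values. The ratio of Cox6a2 then lost its call without any mouse but knockout-labelled replicate 3, and those of Cox7a1 and Cox8b without WT replicate 1, 2, 4 or 5 or knockout-labelled replicate 1 or 4, with adjusted p up to 0.114 in these exact tests.

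Set against the summed CPM of 28 skeletal muscle markers, the isoforms had smaller differences. Cox6a2 made up 0.390% to 0.512% of that sum in WT and 0.486% to 0.593% in the knockout-labelled libraries, a log2 difference of 0.28 (exact p = 0.0476, adjusted p = 0.0762). For Cox8b the log2 difference was 0.23 (exact p = 0.0952, adjusted p = 0.127), and for Cox7a1 it was 0.14 (exact p = 0.262, adjusted p = 0.262). In all 3 the groups overlapped, and no adjusted p was under 0.05. These ratios were not corrected for transcript length, and the isoforms are short, with a median of 393 bases beside 1678 bases for the markers. Without WT replicate 3, Cox6a2 and Cox8b passed, with log2 differences of 0.33 and 0.30 (exact permutation tests, adjusted p = 0.0458 for both). In that fit, too, passing depended on how many ratios reached the smallest possible p.

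The muscle markers themselves stood at 28050, 12080, 19560, 24920 and 24120 summed CPM in WT replicates 1 to 5 and at 50500, 29100, 30340 and 46670 summed CPM in knockout-labelled replicates 1 to 4. The groups did not overlap, and the mean was 1.8 times as high in the knockout-labelled libraries. All 28 genes of the list had a positive log2 fold change, with a median of 0.87, from 0.025 in Neb to 1.69 in Tnnc1. The libraries lowest in muscle markers in each group, both replicate 2, were also the lowest in the oxidative phosphorylation genes. WT replicate 1 and knockout-labelled replicate 2 had nearly the same muscle sum, 28050 and 29100, and their mean levels of the 91 genes other than the muscle isoforms were 0.083 and 0.32 on the log2 scale. Mice within a group differed too. Knockout-labelled replicates 2 and 3, with sums of 29100 and 30340, had mean levels of 0.32 and 0.48. WT replicates 3 and 5, with sums of 19560 and 24120, had 0.054 and 0.012. Since the groups do not overlap in muscle markers, the share of muscle in a sample and the genotype label cannot be told apart.

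**Figure D4:**
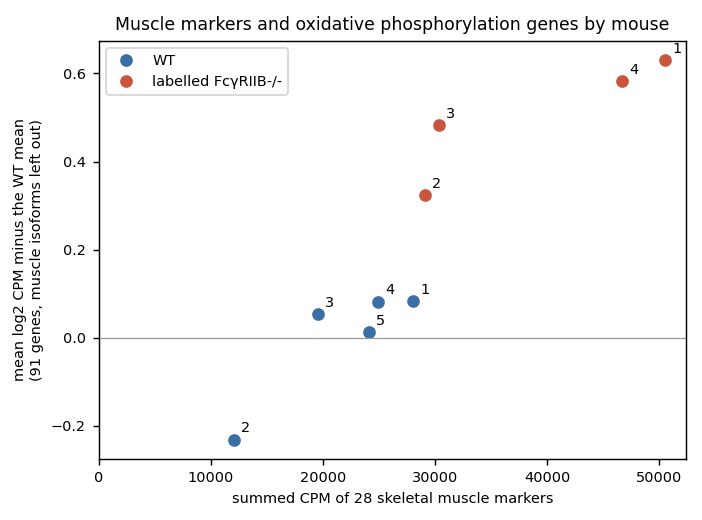
Summed CPM of 28 skeletal muscle markers (horizontal) and mean log2 CPM of 91 oxidative phosphorylation genes relative to the WT mean (vertical) in each mouse, with the replicate number beside each point. The 4 knockout-labelled libraries lie at 29100 and above on the horizontal axis, the 5 WT libraries at 28050 and below, and replicate 2 is the lowest of each group on both axes.

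Fat is another tissue rich in mitochondria. Of 6 brown adipocyte markers, 3 had enough counts to be tested and 0 of these were called, and the summed CPM of the list was 48.9 to 69.8 in WT and 36.6 to 114.5 in the knockout-labelled libraries. White adipocyte markers were mixed. Fabp4, a fatty acid carrier, and Lipe, the hormone-sensitive lipase, were higher (log2 fold changes 1.05 and 0.28), and Adipoq, the hormone adiponectin, was lower (-1.54). Their part in the levels of the oxidative phosphorylation genes was not tested.

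The remaining genes of complex IV are isoforms of other tissues and related proteins. Cox4i2, the lung and hypoxia isoform of subunit 4, rose from 22.0 to 28.8 CPM in WT to 35.3 to 40.7 CPM (log2 fold change 0.65, SE 0.087, adjusted p = 0.00073). Its ratio to Cox4i1 had a log2 difference of 0.25 that did not pass (exact p = 0.135, adjusted p = 0.154). Cox7a2l, which takes part in joining complexes III and IV into supercomplexes, had a log2 fold change of 0.31 (adjusted p = 0.010). Cox6b2, best known from testis, had 0.43 (adjusted p = 0.051), and it passed without WT replicate 2 or 3 or knockout-labelled replicate 2 (adjusted p from 0.0185 to 0.0472) and with RLE normalization (0.0397), TMM without the oxidative phosphorylation and muscle genes (0.035), a floor of 10 counts per library (0.0406) or DESeq2 (0.0193). Ndufa4l2, a relative of the complex IV subunit Ndufa4 that is known to be induced by hypoxia, had -0.15 (SE 0.19, adjusted p = 0.58).

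Of the 5 ratios between paralogues, that of Ndufa4l2 was the one that fell. It stood at 11.2%, 9.92%, 12.3%, 10.01% and 15.5% of Ndufa4 in WT and at 7.85%, 9.12%, 5.92% and 6.93% in the knockout-labelled libraries. The groups did not overlap, and the difference in log2 ratio was -0.66 (exact p = 0.00794, adjusted p = 0.0318). The call was lost without any mouse but WT replicate 3 or knockout-labelled replicate 2, in exact tests with fewer splits and a larger smallest p. The count of Ndufa4 alone rose from 188.9 ± 25.0 CPM (SD, n = 5) to 273.9 ± 22.1 CPM (SD, n = 4).

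Complex V consists of the F1 head, which makes ATP, and the Fo part in the membrane with its stalk. Of the 11 tested genes of Fo and stalk, 10 were called higher, with a median log2 fold change of 0.59. Atp5k and Atp5h, a membrane and a stalk subunit, led with 0.75 (SE 0.13, adjusted p = 0.0027) and 0.70 (SE 0.10, adjusted p = 0.0012). Atp5k stood at 53.5 to 80.5 CPM in WT and 95.4 to 135.9 CPM in the knockout-labelled libraries. Atp5f1, the peripheral stalk subunit b, had 0.35 (adjusted p = 0.018), and its call was lost without knockout-labelled replicate 1 (adjusted p = 0.0508). The c subunit, which forms the rotating ring, comes from 3 genes that yield the same mature protein. Of these, Atp5g3 and Atp5g1, named here after their values were seen, both had 0.61, and Atp5g2 had 0.076 and did not pass (SE 0.099, adjusted p = 0.59).

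In the F1 head, 3 of 5 genes were called higher, with a median log2 fold change of 0.30. Atp5e, the small epsilon subunit of the central stalk, had 182.7, 126.0, 188.5, 161.4 and 152.3 CPM in WT and 301.0, 213.5, 295.4 and 288.7 CPM in the knockout-labelled libraries. The groups did not overlap, and the log2 fold change was 0.76 (SE 0.14, adjusted p = 0.0026). Atp5d, the delta subunit beside it, had 0.57 (adjusted p = 0.0030), and Atp5c1, the gamma subunit that turns inside the head, had 0.30 (adjusted p = 0.031). The call of Atp5c1 was lost without WT replicate 2 or 3 or knockout-labelled replicate 1 or 4 (adjusted p from 0.052 to 0.0874). The subunits that form the catalytic head itself did not pass with edgeR. Atp5b, the catalytic beta subunit, went from 893.7 ± 66.1 CPM (SD, n = 5) to 1045 ± 122.1 CPM (SD, n = 4), a log2 fold change of 0.23 (SE 0.10, adjusted p = 0.11), and it passed with DESeq2 (log2 fold change 0.24, adjusted p = 0.038). Atp5a1, the alpha subunit, had 0.14 (SE 0.11, adjusted p = 0.32). Atp5s, a factor for coupling that is not a subunit, had 0.20 (adjusted p = 0.14).

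The name rule also took in 6 further copies and pseudogenes, named here after their values were seen. Of the 3 that were tested, Ndufa11b (log2 fold change 0.75) and Ndufs6b (0.59) were called higher, and Uqcrh-ps1 had 0.40 (adjusted p = 0.23). All 3 were low, at most 10.1 CPM in any library, and their reads can be shared with the parent genes, so their values are uncertain. Too few counts for a test were found in Ndufb4b with 2 to 12 counts per library, Atp5c1-ps with 0 to 7, Ndufb4c with 0 to 1, and Cox7b2 with 0 to 1. Cox8c, a testis isoform, had 0 counts in every library. Parent genes with such copies, such as Uqcrh and Ndufb4, carry the same uncertainty.

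Levels were compared between genes as CPM per kilobase of transcript. In WT, the catalytic subunit Atp5b was the highest of all at 466.5 ± 34.5 (SD, n = 5), followed by Atp5e at 385.2 ± 59.6. Their intervals of 1 SD overlapped, and the order was turned in the knockout-labelled libraries, where Atp5e stood at 652.4 ± 97.6 (SD, n = 4) and Atp5b at 545.5 ± 63.7. Next in WT were Cox4i1 at 339.0 ± 27.0, Uqcrh at 311.4 ± 32.3, Ndufa4 at 309.7 ± 41.0, Cox6c at 304.7 ± 43.5 and Atp5a1 at 302.3 ± 26.9, and the intervals of 1 SD of these 5 genes overlapped. The muscle isoforms were of the same order as their paralogues. Cox6a2 stood at 139.5 ± 34.7 per kilobase beside 187.5 ± 12.8 for Cox6a1 in WT, and at 306.6 ± 83.9 beside 218.9 ± 21 in the knockout-labelled libraries. The lowest tested genes with a known length in WT were Ndufaf6 at 4.67 ± 0.84 and Atp5s at 6.34 ± 0.63.

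Transcript length moved with the fold change. Genes of oxidative phosphorylation have short transcripts, with a median of 781 bases in GENCODE against 2861 bases over all tested genes. Over the 15076 tested genes with a known length, the rank correlation of log2 fold change with length was -0.30, and over 91 oxidative phosphorylation genes it was -0.53. The points are genes of the same 9 libraries, and the values are a description. In the bin of 500 to 750 bases, 43.3% of all genes were called higher, with a median log2 fold change of 0.29, while 25 of 28 oxidative phosphorylation genes were, with a median of 0.61. Between 2000 and 3000 bases, 13.5% of all genes were called higher with a median of 0.030, and 2 of 5 oxidative phosphorylation genes with a median of 0.14. Between 3000 and 5000 bases, 7.41% of all genes were called higher with a median of -0.062, and 2 of 3 oxidative phosphorylation genes with a median of 0.50. Genes on both sides of the test were long and short, but most of those not called were longer than the group's median. Among those not called, Ndufs1 (2661 bases), Sdha (2900 bases), Sdhc (3171 bases) and Atp5a1 (2471 bases) are long for this group. Atp5b (1916 bases), Uqcrc2 (1896 bases), Atp5s (1485 bases) and Ndufa4l2 (934 bases) are also above its median. Cox6b2 (494 bases), Cox6a1 (571 bases), Ndufaf2 (678 bases) and Atp5g2 (731 bases) are below it. Ndufab1 (3479 bases) and Ndufaf4 (3632 bases) are long by their annotation and were called higher. Atp5g1 was called as well, but its listed length of 2656 bases is uncertain. That length takes up nearly the whole gene, which runs from base 96072793 to base 96075694 with its introns. Its place in the bin of 2000 to 3000 bases and its value in the fit with the length trend removed rest on that length.

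**Figure D5:**
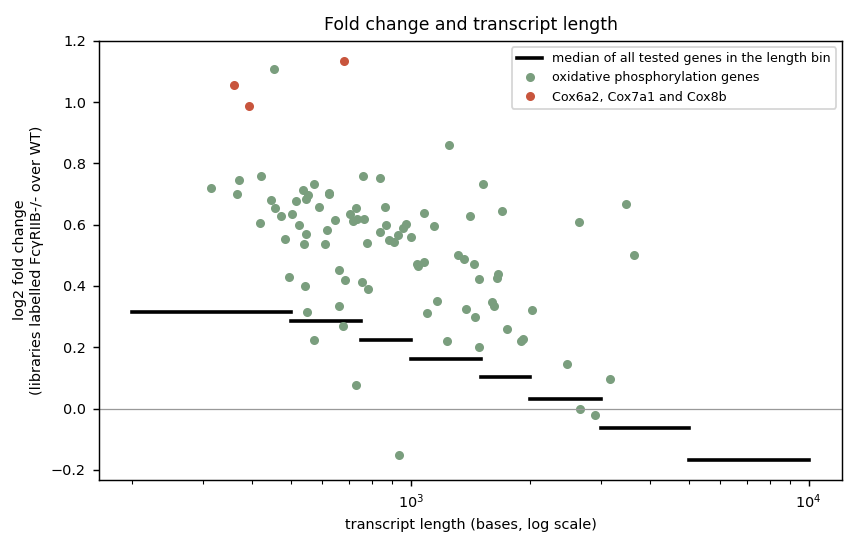
Log2 fold change (knockout-labelled over WT) against transcript length in bases (log scale) for 91 oxidative phosphorylation genes (points), with the median of all tested genes in each length bin (black lines). The black lines step down from 0.31 in the shortest bin to -0.17 in the longest, and most points lie above the line of their bin, Cox6a2 and Ndufa5 among the farthest.

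When each library's trend of level on transcript length was removed, a fit chosen after the trend was seen, 57 of the 94 genes stayed called higher (60.6%, beside 11.5% of all tested genes) and 0 were lower. The median log2 fold change fell from 0.57 to 0.31. Genes without a known length were not corrected in this fit. Among them, the copies Ndufa11b and Ndufs6b kept their log2 fold changes of 0.75 and 0.59, and both are counted in the 57. By complex, 30 of 44 genes of complex I stayed called, 1 of 4 of complex II, 5 of 8 of complex III, 6 of 15 of complex IV other than the muscle isoforms, and 10 of 17 of complex V. The accessory subunits of complex I kept 24 of 29 calls, and the 3 muscle isoforms kept theirs at a median of 0.63. That median was below the 0.80 of the 28 skeletal muscle markers in the same fit, of which 16 were called higher. Before the trend was removed, the medians were 1.06 for the isoforms and 0.87 for the markers. Cox6a1 and Cox8a turned to -0.12 and -0.038 in that fit and Cox7a2 to 0.031, all without a call. Of 103 cytosolic ribosomal protein genes, which are short as well and were added after the values were seen, 37 were called higher before and 7 after the trend was removed.

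Genes that work beside the respiratory complexes, and Cyc1 of complex III, were read from lists. Of 38 assembly factors outside the name rule, 19 were higher and 1 lower, with a median log2 fold change of 0.30. Cox17, a copper carrier for complex IV, and Ecsit, an assembly factor of complex I, led with 0.67 and 0.64, the smallest called rise was 0.23 in Sdhaf2, and Coa5 was lower at -0.29. Of 20 genes of electron carriers and coenzyme Q synthesis, 9 were higher and 0 lower. The called rises went from 0.24 in Coq8b and 0.27 in Dhodh to 0.70 in Etfb and 0.78 in Cycs, which encodes cytochrome c. Of 13 genes of the citric acid cycle, 5 were higher and 0 lower, with a median of 0.15. Mdh2 (0.53) and Suclg1 (0.48) led, and Idh3g (0.32) and Fh1 (0.35) had the smallest called rises.

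Carriers and kinases bring phosphate and ADP to complex V and pass its ATP on. Of 8 tested genes for adenine nucleotide, phosphate and creatine transfer, 6 were higher. They were led by Ckmt2, the mitochondrial creatine kinase of striated muscle (0.92), and Slc25a4, the muscle form of the ADP/ATP carrier (0.76). Vdac2 (0.29) and Slc25a3 (0.35) had the smallest called rises. Of 14 regulators of mitochondrial biogenesis, 0 were higher and 1 was lower, Pprc1 at -0.25, and their median was -0.029. Named here after their values were seen, Ppargc1a, which encodes the coactivator PGC-1α, had 0.091 (SE 0.12, adjusted p = 0.58), and Nrf1 had -0.16 (SE 0.060, adjusted p = 0.060). All 11 tested messengers of mitochondrial DNA were higher, with a median of 1.11. Summed over the list, they had 33100 to 50230 CPM in WT and 65390 to 123600 CPM in the knockout-labelled libraries, the most in replicate 4. ND3, ATP6 and COX3 were low, with WT means of 1.3, 5.7 and 5.8 CPM beside 11130 CPM in COX1. COX3 had 5.5, 6.1, 140.4 and 22.4 CPM in knockout-labelled replicates 1 to 4 and 17.7 CPM in WT replicate 4, so its groups overlapped. The values of these low messengers are uncertain. Of 78 mitochondrial ribosomal protein genes, added after the values were seen, 63 were higher and 0 lower, with a median of 0.36. With the length trend removed, 33 of these 78 were higher, with a median of 0.21. In that fit, 12 of 38 assembly factors, 6 of 20 genes of electron carriers and coenzyme Q synthesis, 4 of 13 of the citric acid cycle and 6 of 8 transfer genes were higher. The biogenesis regulators are long, with a median of 3961 bases, and had 0 higher and 1 lower.

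Promoter sequence was read for the genes that the results turn on. RefSeq windows of 300 bases, from 250 before to 50 after the gene's start on GRCm38.p6, were given for 77 of the 99 genes, and Cox6a2 was not among them. In 68 of 76 windows that could be compared, the last bases lie in a GENCODE transcript of the gene, and in 21 more than 50 bases before the start do so too, so the window is then not the whole promoter. The bases before the transcribed part are shown for muscle isoforms, for the paralogue Cox6a1, for Atp5e and for Sdha, 5′ to 3′ on the gene's strand. Capitals mark the letters GCGCANGCG of nuclear respiratory factor 1 (NRF1), CCGGAAG of ETS factors, a family that includes the subunits of NRF2, or CAGCTG, an E-box that muscle regulatory factors can bind, on either strand. Overlapping NRF1 matches run together.
Cox7a1, chr7:30183921-30184143, plus strand: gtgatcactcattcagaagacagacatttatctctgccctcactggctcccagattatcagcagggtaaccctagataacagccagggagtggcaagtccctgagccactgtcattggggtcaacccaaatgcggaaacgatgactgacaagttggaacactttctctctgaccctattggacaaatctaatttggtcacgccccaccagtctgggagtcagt
Cox8b, chr7:140900447-140900696, minus strand: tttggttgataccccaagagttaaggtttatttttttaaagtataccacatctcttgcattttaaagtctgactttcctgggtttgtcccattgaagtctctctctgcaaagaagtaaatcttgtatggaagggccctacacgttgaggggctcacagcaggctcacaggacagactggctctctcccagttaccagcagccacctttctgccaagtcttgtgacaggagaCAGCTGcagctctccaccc
Cox6a1, chr5:115348982-115349208, minus strand: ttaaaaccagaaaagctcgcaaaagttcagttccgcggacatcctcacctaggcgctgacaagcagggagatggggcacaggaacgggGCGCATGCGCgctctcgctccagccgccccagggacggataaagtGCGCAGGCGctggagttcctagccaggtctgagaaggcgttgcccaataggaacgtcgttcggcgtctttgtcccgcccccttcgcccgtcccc
Atp5e, chr2:174464102-174464351, minus strand: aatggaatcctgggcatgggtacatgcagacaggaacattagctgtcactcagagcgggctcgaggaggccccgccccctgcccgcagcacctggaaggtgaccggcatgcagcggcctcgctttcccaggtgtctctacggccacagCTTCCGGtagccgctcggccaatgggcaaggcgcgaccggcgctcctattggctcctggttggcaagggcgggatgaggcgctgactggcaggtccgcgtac
Sdha, chr13:74350281-74350490, minus strand: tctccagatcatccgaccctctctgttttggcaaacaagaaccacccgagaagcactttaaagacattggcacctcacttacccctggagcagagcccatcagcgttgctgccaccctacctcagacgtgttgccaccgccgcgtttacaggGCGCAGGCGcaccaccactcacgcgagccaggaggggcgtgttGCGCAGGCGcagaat

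The letters were read in the muscle isoforms and their paralogues. Cox7a1 and its paralogue Cox7a2 both hold none of the motifs searched in their windows. Cox8b holds CAGCTG just before its start and TATAAA after it, and its paralogue Cox8a holds an ETS match. Cox6a1 and Sdha both hold more than 1 NRF1 match, and Cox6a1 and Atp5e both hold an ETS match. Over the 77 windows, the NRF1 letters occur in 28.6%, beside 13.3% of the windows of tested genes and 7.03% of all windows. The ETS letters occur in 23.4% beside 17.3% and 9.93%, and the YY1 letters AAGATGGCG in 10.4% beside 2.98% and 1.64%. The letters TNAAGGTCA of estrogen-related receptors occur in 3.9% beside 0.909% and 1.43%, and CAGCTG in 7.79% beside 18.6% and 18.3%. TATAAA occurs in 9.09% beside 9.86% and 15.7%. The MEF2 consensus was searched by its letters too, which are not written out here, and occurs in 0 of 77 windows, beside 2.39% of the windows of tested genes. Among the genes called higher, 19 of 68 windows hold the NRF1 letters, and among those tested and not called 3 of 7 do. A match is a description of letters and not a binding site.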

How the data were processed

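Whole mandibles with their teeth were pulverized and poly(A) RNA was sequenced from directional libraries of 5 WT mice and 4 mice labelled FcγRIIB-/-. Raw counts per gene from featureCounts were deposited without normalization. The authors had removed adaptors with Trim Galore and aligned to mm10 with HISAT. The gene annotation, the strand setting and the handling of multiply assigned reads were not given in the sources used here, so copies and overlapping genes can share reads. The table held 1 column of per-sample values that matched no sample and was not used, and 1030 genes without a symbol, which were tested.

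edgeR 4.0.16 was run in R 4.3.3. Genes passed filterByExpr (minimum count 10), libraries were scaled by TMM, and genotype was tested by quasi-likelihood without covariates, with Benjamini-Hochberg adjustment over all 16329 tested genes at 0.05. Each SE was derived from the F statistic and the fold change. A prior count of 2 entered log2 CPM. Ratios of counts were tested with the two-sided exact permutation test. The script was tested on simulated counts. Totals of 21453880 to 28991631 counts per mouse make counting error small except in genes with few counts. These include the copies and pseudogenes, and also Ndufaf6 (104 to 220 counts per mouse), Ndufaf2 (196 to 341) and Atp5s (204 to 310). No pair of libraries was near-identical.

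The genes, lists and tests were chosen with earlier results of these data known. Named genes are the muscle isoforms and their paralogues, all genes of complexes II and III, in every other group the 2 largest and 2 smallest log2 fold changes (all where 5 or fewer were tested), and genes below the filter, except 1 gene that is not reported here. From the lists of assembly factors, electron carriers, the citric acid cycle and transfer genes, the 2 largest and the 2 smallest called changes are named. The other lists have few genes named, or none. Alternatives were RLE normalization, total counts, TMM without the oxidative phosphorylation and muscle genes, other filters, DESeq2 1.42.0, an adjusted p under 0.01, a replicate block, leaving out each mouse and, added after seeing the data, removing each library's lowess trend (span 0.3) on transcript length or GC content. Lengths are medians over GENCODE M21 transcripts, coordinates are those of RefSeq on GRCm38.p6 (mm10), and motifs were searched on both strands. The labels give replicate numbers, and that each library is a separate mouse was taken from the numbers of mice the authors give.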

Additional observations from a re-analysis of the deposited data

Results flagged for a closer look

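In each group of 4 or 5 mice, the highest and the lowest value were set against the range of the group (Dixon's criterion). Of 112 groups of values examined, 10 had a mouse apart from the rest, where chance gives about 5.6. In 7 of them the mouse was WT replicate 2, at the low end. Its value was 74.4 CPM in Uqcrb (gap over range 0.778, next 90.6 CPM), 153.7 CPM in Uqcrc1 (0.716, next 192.5 CPM) and 20.9 CPM in Ndufaf4 (0.877, next 27.0 CPM). It was 115.4 CPM in Cox6c (0.754, next 156.9 CPM), 778.6 CPM in Atp5b (0.78, next 904.4 CPM) and 53.5 CPM in Atp5k (0.776, next 74.5 CPM). The log2 ratio of Cox8b to Cox8a was -1.54 in that mouse (0.912, next -0.47). WT replicate 2 also had the lowest muscle marker sum of the 9 mice.

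WT replicate 3 was the high mouse in Cox6a1, at 119.7 CPM (0.723, next 106.8 CPM), and in the log2 ratio of Cox8b to the muscle marker sum, at -8.12 (0.768, next -8.46). Replicate 2 of the libraries labelled FcγRIIB-/- was the low mouse in Atp5e, at 213.5 CPM (0.859, next 288.7 CPM).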

How the results depend on the processing

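Every alternative gave 0 genes lower and between 57 and 85 higher, beside 81 at first, and those higher with the length trend removed (57) were all among the 81. The muscle isoforms stayed called in each. Over all genes, total counts gave 1309 higher and 3781 lower in place of 2289 and 3144, with 70 oxidative phosphorylation genes higher, and an adjusted p under 0.01 gave 869 higher and 1763 lower, with 61. Correlations of deviations between mice of the same replicate number were small (0.0969, 0.0276, -0.114 and -0.0739). In the mean level of the 91 genes other than the muscle isoforms, however, replicates 1 to 4 ranked alike in both groups. From high to low the order was 1, 4, 3 and 2, with WT replicates 1 and 4 nearly level (0.083 and 0.082). Whether replicate numbers pair the mice was not settled. With a replicate block, 74 genes were higher.

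Complex II fell from 2 called genes to 1 with total counts, no filter on low counts, an adjusted p under 0.01, the replicate block and the length trend removed, and lay between 1 and 2 when a mouse was left out. With the length trend removed, complex IV had 6 in place of 12, and the median of the genes other than the muscle isoforms was 0.30 in place of 0.56. That fit turned Cox6a1 (-0.12), Cox8a (-0.038), Ndufaf2 (-0.025) and Atp5g2 (-0.20), none called. Genes near 0 also turned without a call. Ndufs1 was at 0.013 with RLE, 0.00473 with 10 counts in every library, 0.013 with DESeq2, 0.011 with the replicate block, 0.063 with the GC trend removed and 0.020 with TMM without the genes. Sdha was at 0.018 and 0.0021 in the last pair of fits, Atp5g2 at -0.000954 with total counts and Ndufa4l2 at 0.034 with the replicate block. Without 1 mouse, Ndufs1 lay between -0.084 and 0.055, Sdha between -0.11 and 0.026, Ndufa4l2 between -0.25 and 0.051 and Atp5g2 between -0.0011 and 0.16.

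The log2 ratios, without 1 mouse, lay between 0.74 and 1.11 for Cox6a2 to Cox6a1, 0.55 and 0.77 for Cox7a1 to Cox7a2, 0.56 and 0.89 for Cox8b to Cox8a, and -0.76 and -0.55 for Ndufa4l2 to Ndufa4. Most of these fits lost the adjusted call, where fewer splits also made the smallest possible p larger. The log2 ratios to the muscle sum lay between 0.22 and 0.33 for Cox6a2 and 0.17 and 0.30 for Cox8b. Both passed without WT replicate 3 (exact permutation tests, adjusted p = 0.0458). The cause was not tested.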
